A study of Mus musculus with 28 samples.

Results

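The cholesterol module comprised 31 genes, chosen by symbol for what their proteins do, but with earlier results of these data known. They were 8 enzymes from acetyl-CoA to farnesyl and geranylgeranyl diphosphate, 11 enzymes from squalene to cholesterol and 4 regulators of SREBP2. The others were 4 genes of sterol uptake and transport inside the cell, 1 gene of sterol storage and 3 sterol exporters. All 31 were among the 20416 genes listed in each of 3 tables of liver RNA sequencing, and all 31 passed the filter on low mean values that left 15312 genes for testing in each table. The livers came from male C57BL/6 mice in 2 models of steatohepatitis, in which a fatty liver becomes inflamed and scarred. Livers of mice on a methionine- and choline-deficient diet (MCD, n = 4) were set against livers of mice on its matched low-fat control diet (CD, n = 4). For these diet groups the sample titles and the design text give 4 weeks and a further label 5 weeks, and no age is stated for those mice. STAM livers, from mice given streptozotocin on postnatal day 2 to injure the insulin-producing cells and then a high-fat diet starting in week 4, were set against livers of mice on a control diet at 4 weeks of age (n = 5 each) and again at 10 weeks of age (n = 5 each). The 4-week STAM livers are labelled with the high-fat diet, although the design text starts that diet in week 4, and what the STAM controls received at birth is not stated in the labels. No allele or transgene is named for any group. All groups are whole liver, and the summed level of 6 hepatocyte markers, all with reads in every library, was 39993 to 145390 CPM (a gene's reads over the authors' effective library size, on the CPM scale) over the 28 libraries.

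Cells make cholesterol from acetyl-CoA through mevalonate, farnesyl diphosphate and squalene, and the liver does so for itself and for the lipoproteins and bile it secretes. When sterols in the endoplasmic reticulum are scarce, SCAP escorts the transcription factor SREBP2 to the Golgi, where it is cut and freed to turn on the genes of synthesis and uptake. When sterols are plentiful, INSIG proteins hold SCAP back, and oxidised sterols activate the receptor LXR, which turns on exporters such as ABCA1 and the ABCG5 and ABCG8 pair. Insig1 is itself a target of SREBP2, whereas the main liver transcript of Insig2 is repressed by insulin.

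The promoters of Hmgcs1, Insig1 and Tm7sf2 are printed because their genes carry the results that follow: Hmgcs1, cytosolic HMG-CoA synthase, which was higher in MCD livers, and Insig1 and Tm7sf2, a sterol reductase, which were lower in both models. The windows of Insig1 and Tm7sf2 were chosen after their values were seen. Each is 300 bases of the RefSeq gene start in build GRCm38.p6, from 250 bases before the start to 50 bases after it, given 5′ to 3′ on the strand of the gene. The windows lie at chr13:119690101-119690400 (plus strand) for Hmgcs1, chr5:28071162-28071461 (plus strand) for Insig1 and chr19:6067801-6068100 (minus strand) for Tm7sf2, and hold the upstream sequence and the first exonic bases. Capitals mark the letters searched for on both strands: TCACNCCAC, a sterol regulatory element as textbooks give it, CCAAT, the NF-Y box, which reads ATTGG on the other strand, and CACGTG, an E-box. None of these motifs overlaps another in the windows shown.
Hmgcs1: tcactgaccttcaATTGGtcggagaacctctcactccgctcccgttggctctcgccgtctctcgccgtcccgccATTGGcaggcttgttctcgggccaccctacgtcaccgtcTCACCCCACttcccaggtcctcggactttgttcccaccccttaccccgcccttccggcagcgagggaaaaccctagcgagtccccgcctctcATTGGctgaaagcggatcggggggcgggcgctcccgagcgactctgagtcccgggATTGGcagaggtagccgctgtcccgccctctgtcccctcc
Insig1: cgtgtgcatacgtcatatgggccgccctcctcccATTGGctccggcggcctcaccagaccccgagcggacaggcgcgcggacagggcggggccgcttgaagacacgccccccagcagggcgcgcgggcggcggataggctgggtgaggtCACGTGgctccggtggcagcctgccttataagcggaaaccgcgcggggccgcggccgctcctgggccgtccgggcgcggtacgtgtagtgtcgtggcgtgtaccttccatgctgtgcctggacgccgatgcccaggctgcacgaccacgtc
Tm7sf2: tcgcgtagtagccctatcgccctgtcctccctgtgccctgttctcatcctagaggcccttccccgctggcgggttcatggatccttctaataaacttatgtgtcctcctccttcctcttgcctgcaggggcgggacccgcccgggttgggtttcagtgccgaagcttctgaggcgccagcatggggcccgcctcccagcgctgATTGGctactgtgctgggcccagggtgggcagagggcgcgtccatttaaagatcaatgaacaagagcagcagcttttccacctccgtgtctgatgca
Of the 31 genes, 24 had such a window in the RefSeq table. The element TCACNCCAC stood in 1 of the 24 windows (4.17%), that of Hmgcs1, where it begins 137 bases before the start, and in 1.24% of all 32851 windows of that length. CCAAT stood in 19 of 24 (79.2%) and in 37.4% of all windows, and CACGTG in 5 of 24 (20.8%) and in 7.15% of all windows. Hmgcs1 had 4 CCAAT boxes, Insig1 had 1 with an E-box 101 bases before the start, and Tm7sf2 had 1. These are matches of letters, and no binding was measured.

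The labels do not say that the libraries of a group came from separate mice, so the p-values rest on the spread between libraries, and that spread may be technical. Total depth was 16.2 to 25.9 M reads per library. The authors' scaling factors, effective library size over total reads, were 1.11 to 1.23 in MCD and 0.832 to 0.899 in CD, 1.01 to 1.05 in STAM and 0.956 to 0.990 in control livers at 4 weeks, and 1.05 to 1.16 in STAM and 0.878 to 0.939 in control livers at 10 weeks, so a part of each fold change depends on that scaling. With plain total reads as the scale, the median log2 fold change of all genes moved to 0.48 for MCD (0.07 as deposited), to 0.09 at 4 weeks (0.01) and to 0.33 at 10 weeks (0.05). Some libraries stood apart within their own group in the synthesis genes. Control replicate 1 at 4 weeks was the lowest of its 5 libraries in 18 of 19 synthesis genes, by a median of 2.18 on the log2 scale. Control replicate 1 at 10 weeks was the highest of its 5 in 18 of 19, by a median of 1.12. Further libraries were at 1 end of their group in 13 to 17 of 19, by medians of at most 0.93: STAM replicate 4 at 10 weeks, STAM replicate 1 and control replicate 5 at 4 weeks and CD replicate 1 were the highest, and control replicate 2 and STAM replicate 2 at 10 weeks and MCD replicate 1 the lowest. The counts of calls that use either first control are given with and without it. The heat map of the 19 synthesis genes shows both.

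**Figure D1:**
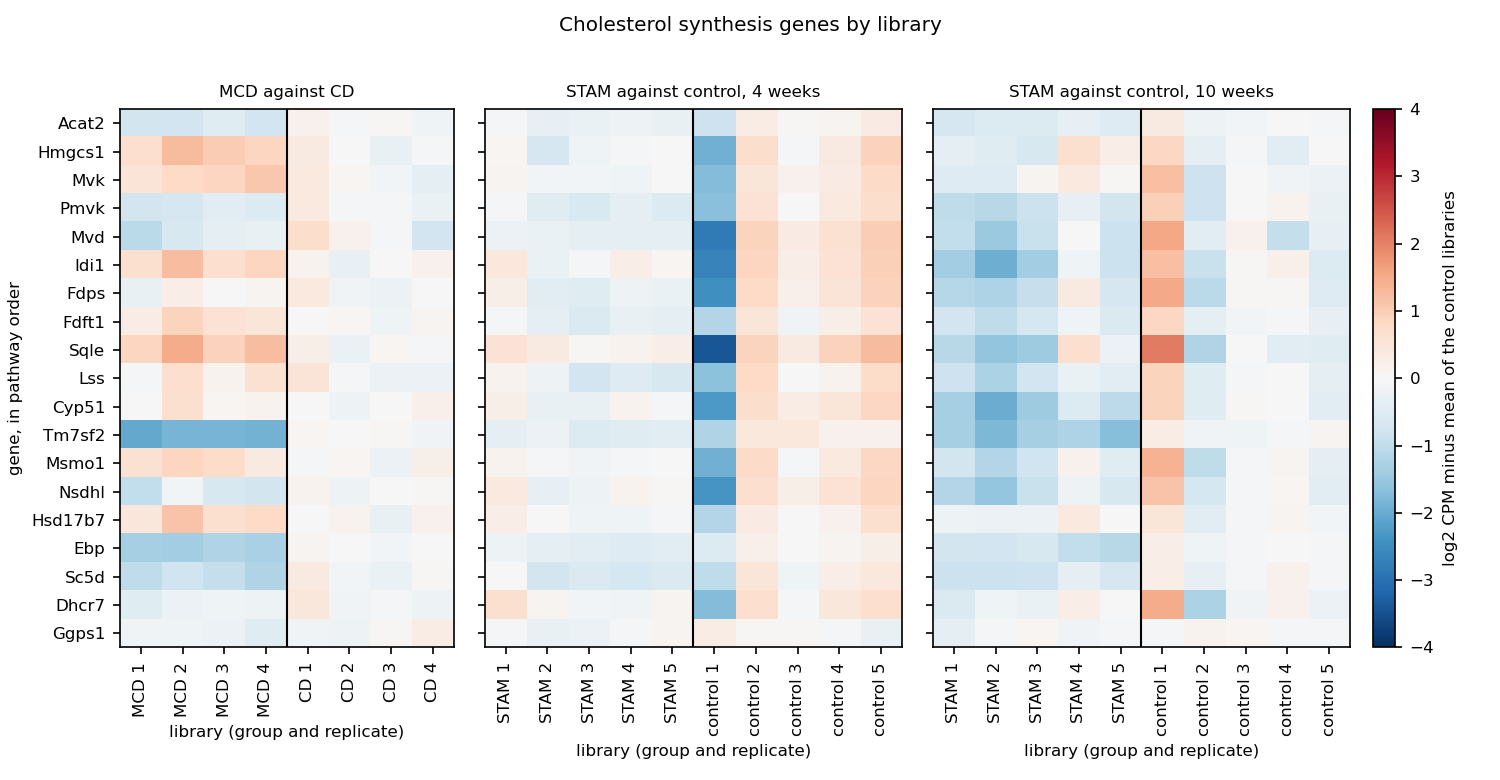
Log2 CPM of the 19 synthesis genes in each library minus the mean of the control libraries of the same table (colour, red higher and blue lower), with genes in pathway order down the page and libraries across it, MCD or STAM left of the black line and CD or control right of it. Control replicate 1 at 4 weeks is blue in 18 of 19 genes and control replicate 1 at 10 weeks is red in 18 of 19.

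Among the control livers Sc5d, a sterol desaturase late in the pathway, had the highest level per kilobase of the 19 synthesis genes in every table: 366 ± 68.2 CPM per kb in CD (SD, n = 4), 442 ± 157 in 4-week controls and 236 ± 37.7 in 10-week controls (SD, n = 5 each). Fdps, farnesyl diphosphate synthase, and Ebp, a sterol isomerase, came within the first 4 places in every table, with 156 ± 32.1 and 119 ± 6.88 CPM per kb in CD. In the 4-week controls, Hmgcs1 stood in the second place at 266 ± 139 CPM per kb, with a spread that overlaps those of its neighbours in the order. Mvk, mevalonate kinase, Mvd, mevalonate diphosphate decarboxylase, and Ggps1, geranylgeranyl diphosphate synthase, filled the last 3 places in all 3 tables, at 4.30 ± 0.954, 10.2 ± 4.13 and 6.92 ± 1.13 CPM per kb in CD. The tables were scaled separately, so these levels give an order within a table and no comparison of ages.

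In MCD livers synthesis enzymes both rose and fell, in the mevalonate part and in the sterol part. The largest rises were those of Sqle (2.18-fold) and Hmgcs1 (1.94-fold), and the largest falls those of Tm7sf2 (3.79-fold lower), Ebp (2.48-fold) and Sc5d (1.99-fold), reductase, isomerase and desaturase of the sterol steps. Insig1, Insig2 and Scap, whose proteins hold back or escort SREBP2, were all lower. Abca1, the exporter of cholesterol and phospholipid to apolipoprotein A-I, was 1.60-fold lower, while Abcg5 and Abcg8 did not pass the test with all libraries as deposited.

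By the limma test across all genes (called at an adjusted p below 0.05), 8 of the 31 genes rose and 11 fell in MCD livers (25.8% and 35.5%), and 42.7% of all genes tested were called, 22.6% higher and 20.1% lower. The share that rose lay near the background, and so gives no result about the module as a whole. The median log2 fold change was -0.26 over the 31 genes and 0.07 over all genes tested. Of the 19 synthesis genes 7 rose and 6 fell. With total-read scaling the synthesis genes gave 10 higher and 4 lower calls and with quantile normalization 8 and 5, and the 31 genes gave 15 and 6 and 11 and 7. With total-read scaling 8804 of all 15312 genes tested were called, 7582 of them higher, and with quantile normalization 6233, 3101 of them higher.

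**Figure D2:**
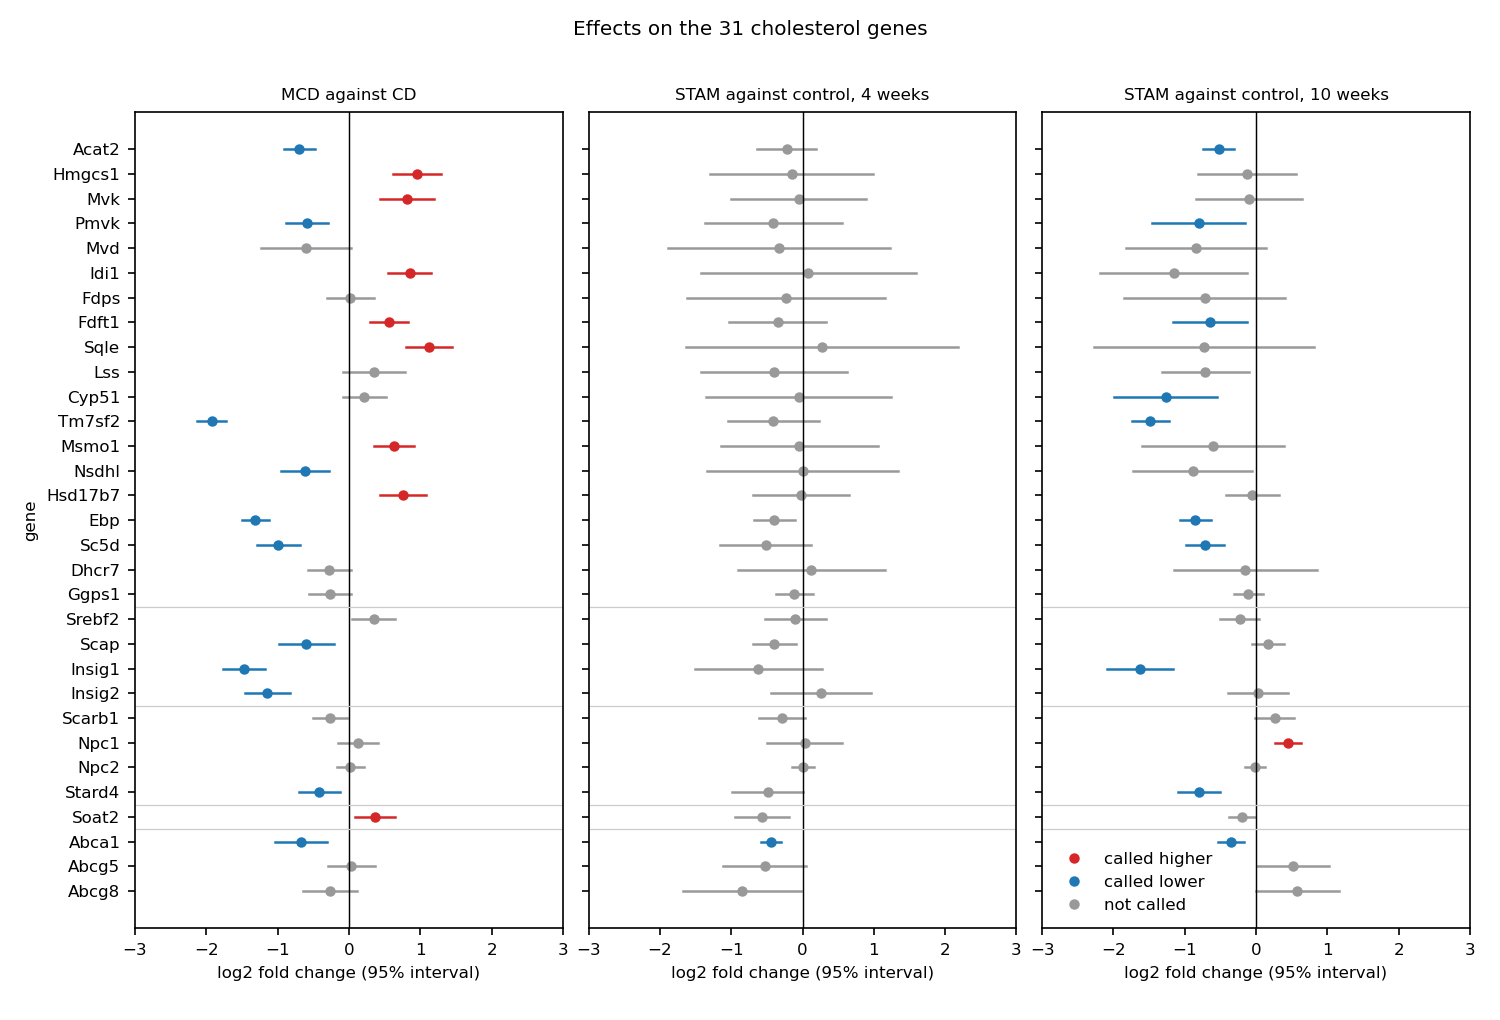
Log2 fold change (points) with its 95% interval (lines) of each of the 31 genes, one panel each for MCD over CD, STAM over control at 4 weeks and STAM over control at 10 weeks; red points were called higher, blue points lower and grey points were not called, and grey lines part synthesis, SREBP2 control, transport, storage and efflux. In MCD livers 7 synthesis genes are red and 6 blue, at 4 weeks only Abca1 is called, and at 10 weeks every synthesis gene lies left of 0.

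In the mevalonate part of the pathway, 3 of 8 genes rose and 2 fell in MCD livers. Hmgcs1, which joins acetyl-CoA and acetoacetyl-CoA, had 502, 754, 637 and 566 CPM in the 4 MCD livers, against 405, 309.5, 255 and 303 CPM in the 4 CD livers. The lowest MCD liver lay above the highest CD liver (log2 fold change 0.95, SE 0.15, adjusted p = 0.000352). Idi1, isopentenyl diphosphate isomerase, had 183, 278, 191 and 217 CPM in MCD and 129.9, 97.8, 119 and 133 CPM in CD livers, again without overlap (log2 fold change 0.85, SE 0.14, adjusted p = 0.000398). Mvk had 10.5, 12.8, 13.2 and 15.4 CPM in MCD and 9.60, 7.65, 6.84 and 5.67 CPM in CD livers, and its groups did not overlap although the gene is read at a low level (log2 fold change 0.81, SE 0.18, adjusted p = 0.00248). Acat2, the thiolase that makes acetoacetyl-CoA, and Pmvk, phosphomevalonate kinase, went the other way, with log2 fold changes of -0.69 and -0.59. Acat2 has a near-identical neighbouring paralog, so its counts are uncertain, and Pmvk lost its call with total-read scaling (-0.17, adjusted p = 0.354). Mvd (-0.60), Fdps (0.02) and Ggps1 (-0.26) did not pass the test, but Mvd was called lower without CD replicate 4 (-0.86) and Fdps higher with total-read scaling (0.44).

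Of the 11 squalene and sterol genes, 4 rose and 4 fell in MCD livers (36.4% each, against 22.6% and 20.1% of all genes tested). Sqle, squalene epoxidase, the first oxygen-dependent enzyme of the pathway, had 107, 167, 111 and 139 CPM in MCD livers, against 68.8, 49.6, 62.7 and 56.6 CPM in CD livers. Every MCD liver was above every CD liver, with the highest in MCD replicate 2 (log2 fold change 1.12, SE 0.15, adjusted p = 7.49e-05). Tm7sf2 (chr19:6062821-6067850, minus strand, mm10) moved most of the 31 genes. It had 16.1, 18.3, 18.3 and 17.9 CPM in the MCD livers and 69.9, 68.3, 68.5 and 61 CPM in the CD livers. Both groups were narrow and far apart (log2 fold change -1.92, SE 0.09, adjusted p = 2.91e-08). Ebp had 81.5, 78.1, 89 and 84.6 CPM in MCD and 222, 206, 193 and 207 CPM in CD livers (log2 fold change -1.31, SE 0.09, adjusted p = 3.65e-07). Sc5d had 406, 464, 420.0 and 351 CPM in MCD and 1030.5, 748, 676 and 834 CPM in CD livers (log2 fold change -0.99, SE 0.14, adjusted p = 0.000104). Neither gene's groups overlapped, and the Sc5d call was lost with quantile normalization (-0.34, adjusted p = 0.075). Tm7sf2 overlaps the annotated span of a neighbouring gene, and no source used here says whether the counting used strand.

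Of the other sterol genes, Fdft1, squalene synthase (log2 fold change 0.56), Msmo1, methylsterol monooxygenase (0.63), and Hsd17b7, a sterol ketoreductase (0.76), rose. Nsdhl, a sterol dehydrogenase that acts beside Msmo1 and Hsd17b7 in removing methyl groups, fell by 0.62 on the log2 scale, a call lost with total-read scaling (-0.19, adjusted p = 0.327). Lss, lanosterol synthase (0.35), Cyp51, lanosterol demethylase (0.22), and Dhcr7, a reductase of the final steps (-0.28), did not pass the test. Lss and Cyp51 were called higher with total-read scaling (0.77 and 0.64), Cyp51 also with quantile normalization (0.55) and Lss without CD replicate 1 (0.53).

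Among the regulators of SREBP2, 3 of 4 fell in MCD livers. Insig1 (chr5:28071412-28078662, plus strand, mm10) had 249, 302, 262 and 237 CPM in MCD livers, against 904, 786, 609 and 634 CPM in CD livers. The highest MCD liver was below the lowest CD liver (log2 fold change -1.47, SE 0.14, adjusted p = 4.17e-06). Insig2 had 349, 367, 375 and 259 CPM in MCD and 845, 841, 693 and 604 CPM in CD livers, with no overlap (log2 fold change -1.14, SE 0.15, adjusted p = 5.4e-05). Scap fell by 0.60 on the log2 scale (SE 0.17, adjusted p = 0.0161), a call lost without MCD replicate 2 (adjusted p = 0.050) and with both other scalings (-0.17 and -0.47). Srebf2, which encodes SREBP2, had 47.7, 49.3, 51.9 and 59 CPM in MCD and 46.6, 49.6, 38.2 and 31.2 CPM in CD livers. Its groups overlapped and it did not pass the test (log2 fold change 0.35, SE 0.14, adjusted p = 0.0623), but it was called higher with total-read scaling (0.77) and quantile normalization (0.44) and without CD replicate 1 (0.41) or 2 (0.44). In bulk liver, fewer cells of a type and less RNA per cell cannot be told apart. The 6 hepatocyte markers summed to 63522 to 84298 CPM in MCD and 75325 to 98479 CPM in CD livers, 4 of 6 fell, and their part in these results was not tested.

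**Figure D3:**
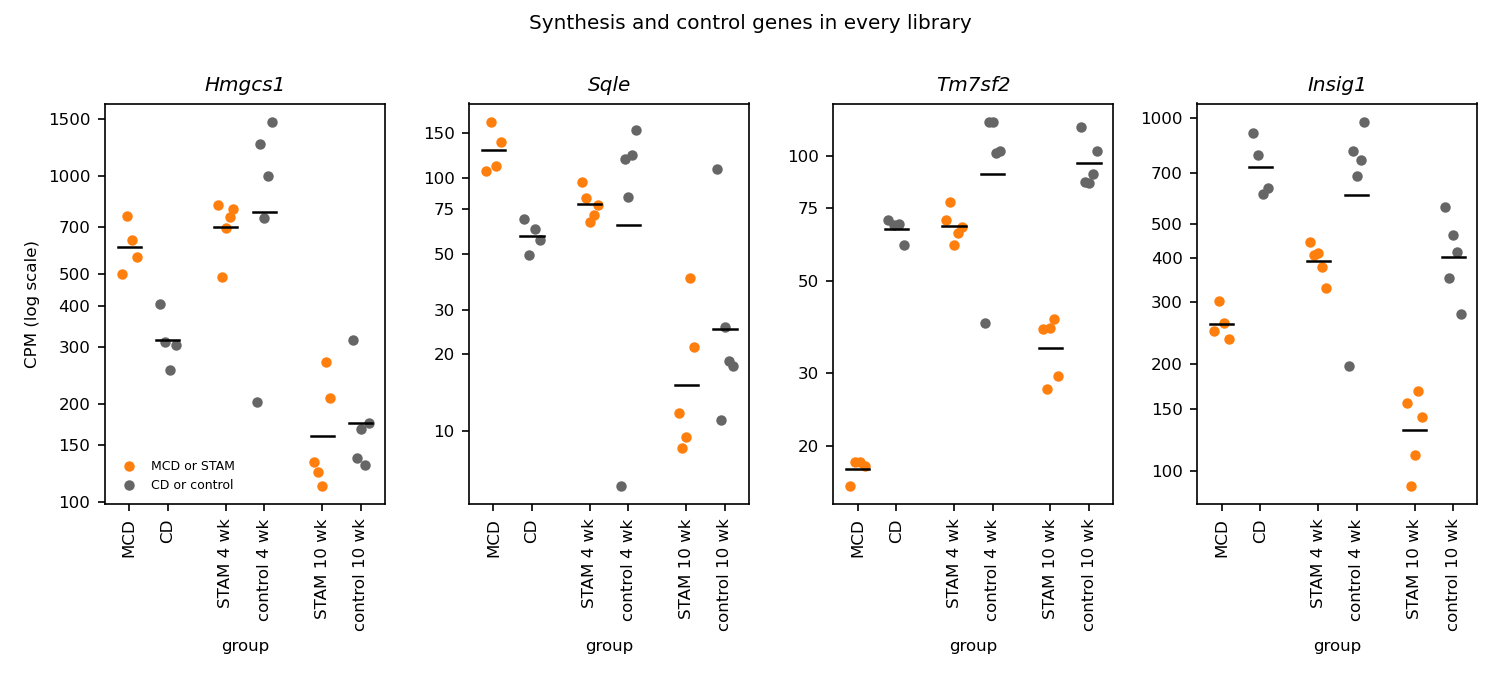
CPM on a log scale of Hmgcs1, Sqle, Tm7sf2 and Insig1 in each library (points; orange MCD or STAM, grey CD or control), with the mean of the log2 values of each group as a bar. Sqle and Hmgcs1 are higher in every MCD liver than in any CD liver, Tm7sf2 and Insig1 are lower, and 1 of the 4-week controls lies at 6.06 CPM for Sqle and 198 CPM for Insig1.

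In uptake, storage and efflux 1 gene of each role passed the test. Stard4, a carrier of sterols through the cytosol, had 82.9, 108, 82 and 84.4 CPM in MCD and 127, 132, 91.6 and 127 CPM in CD livers (log2 fold change -0.41, SE 0.13, adjusted p = 0.0243). The lowest CD liver lay within the MCD range, and the call was lost when any 1 of CD replicates 1, 2 and 4 and MCD replicates 1, 3 and 4 was left out (adjusted p up to 0.0728). With total-read scaling the change of Stard4 was 0.01. Scarb1, the receptor for high-density lipoprotein (-0.26), and Npc1 and Npc2, which pass cholesterol out of lysosomes (0.13 and 0.02), did not pass the test, and Npc1 and Npc2 were called higher with total-read scaling (0.55 and 0.45), Npc1 also with quantile normalization (0.47), and Scarb1 lower without MCD replicate 4 (-0.32). Soat2, which makes cholesteryl esters in hepatocytes, had 55.1, 72.9, 66.9 and 71.1 CPM in MCD and 51.6, 63.3, 51.2 and 41.9 CPM in CD livers (log2 fold change 0.36, SE 0.13, adjusted p = 0.0407). Its groups overlapped, and the call was lost without any of 6 libraries, CD replicates 1, 3 and 4 and MCD replicates 2, 3 and 4, with adjusted p up to 0.113.

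Abca1 (chr4:53030789-53159895, minus strand, mm10) had 348, 260.2, 324 and 208 CPM in MCD livers, against 441, 377, 424 and 563 CPM in CD livers. The groups did not overlap (log2 fold change -0.67, SE 0.17, adjusted p = 0.00604), but the call was lost with total-read scaling (-0.25, adjusted p = 0.168) and with quantile normalization (-0.16, adjusted p = 0.488). Abcg5 (chr17:84658234-84682923, minus strand) and Abcg8 (chr17:84676302-84700333, plus strand) lie head to head with overlapping spans in mm10, and their proteins work as a pair that moves sterols into bile. Abcg5 had 73.4, 83.7, 125 and 77.1 CPM in MCD and 80.7, 89.4, 77.6 and 95.4 CPM in CD livers (log2 fold change 0.04, SE 0.15, adjusted p = 0.865). Abcg8 had 73.3, 97.6, 147 and 113 CPM in MCD and 119, 133, 116 and 136 CPM in CD livers (log2 fold change -0.27, SE 0.17, adjusted p = 0.23). For both genes the MCD livers spread wider than the CD livers and covered their range, with the highest value in MCD replicate 3. Abcg5 was called higher with total-read scaling (0.46, adjusted p = 0.0121), and Abcg8 lower without MCD replicate 3 (-0.43, adjusted p = 0.0316).

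At 4 weeks the STAM livers differed from controls in 1 of the 31 genes when all 10 libraries were used. Abca1 was 1.36-fold lower in STAM livers. None of the 19 synthesis genes passed the limma test, and 1 of them had an unadjusted p below 0.05. In that comparison 9.80% of all genes tested were called, 6.52% higher and 3.27% lower, the median of the 31 genes was -0.23 and that of all genes 0.01. Quantile normalization and total-read scaling left the count at 1 lower and 0 higher, while they called 1431 and 1645 of all genes tested.

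Abca1 had 310.2, 281, 291, 278 and 268 CPM in STAM livers, against 402, 393, 359.7, 397 and 394 CPM in control livers at 4 weeks. Every STAM liver was below every control (log2 fold change -0.45, SE 0.07, adjusted p = 0.00109), and the value without control replicate 1 was -0.43 (adjusted p = 0.00117). Abcg5 had 138, 139, 96, 96.4 and 93.8 CPM in STAM and 244, 177, 217, 101 and 111 CPM in control livers, and did not pass the test (log2 fold change -0.53, SE 0.26, adjusted p = 0.255). Abcg8 had 140.0, 97.3, 87.1, 87.3 and 102 CPM in STAM and 349, 193, 283, 101 and 103 CPM in control livers (log2 fold change -0.85, SE 0.36, adjusted p = 0.196). Control replicates 1, 2 and 3 were high for both exporters and control replicates 4 and 5 lay among the STAM livers. Insig1 had 445, 409, 413, 377 and 329.5 CPM in STAM and 198, 805, 682, 759.8 and 976 CPM in control livers. Of the 5 controls 4 were above every STAM liver and control replicate 1 was below all of them (log2 fold change -0.62, SE 0.39, adjusted p = 0.393). Srebf2 had 58.5, 61.3, 62.6, 67 and 74.2 CPM in STAM and 39, 85.4, 77.8, 70.8 and 86 CPM in control livers, with control replicate 1 again the lowest of the 10 (log2 fold change -0.10, SE 0.20, adjusted p = 0.821).

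The 4-week result for synthesis depended on control replicate 1. Sqle, shown after its values were seen, had 96.5, 83.6, 66.7, 71.1 and 78.1 CPM in STAM livers, against 6.06, 119, 83.7, 123 and 155 CPM in control livers. The first control held 6.06 CPM where the other 4 held 83.7 to 155 CPM. Tm7sf2, shown likewise, had 70.2, 77.3, 61.2, 65.1 and 67.3 CPM in STAM and 39.6, 121, 121, 101 and 103 CPM in control livers, so that 4 controls were above and 1 was below every STAM liver. Without that library 17 of the 31 genes fell and 0 rose, while 11.9% of all genes were called, 7.18% higher and 4.72% lower. Of the 19 synthesis genes 13 then fell, 6 of the mevalonate and 7 of the sterol part, and all 19 log2 fold changes were negative, with a median of -0.59 (all genes 0.01). The median over the 19 with all libraries was -0.15. Control replicate 1 was the lowest control in 18 of 19 synthesis genes. Leaving it out lowers the fold changes of those genes by itself, so this shift is no independent result on synthesis at 4 weeks.

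The members that fell at 4 weeks without control replicate 1 included all roles but storage. In the mevalonate part Mvd (-1.03, adjusted p = 0.000146), Fdps (-0.84), Pmvk (-0.83), Idi1 (-0.59), Mvk (-0.49) and Acat2 (-0.43) fell. In the sterol part Sc5d (-0.77), Tm7sf2 (-0.71, adjusted p = 0.000195), Fdft1 (-0.64), Cyp51 (-0.63), Nsdhl (-0.59), Sqle (-0.58, adjusted p = 0.0465) and Ebp (-0.53) fell. Insig1 (-1.02, adjusted p = 9.02e-05), Srebf2 (-0.31, adjusted p = 0.0328), Stard4 (-0.71) and Abca1 fell as well. Insig2 was at 0.22 (adjusted p = 0.765) without that library. The signs of Idi1, Sqle, Nsdhl and Dhcr7 differed between the fits, with positive values (up to 0.27, for Sqle) when all 5 controls were used. Beside this, the hepatocyte markers of control replicate 1 summed to 123449 CPM, the lowest of the 5 controls (127681 to 145390 in the others). Its stellate cell markers summed to 86.3 CPM, also the lowest (up to 235 CPM). So did its cholangiocyte (3.09 CPM), T cell (1.22), neutrophil (0.709) and exocrine pancreas (5.54) markers. Its macrophage sum (194 CPM) was the highest, and its B cell, Kupffer cell, endothelial and enterocyte sums lay between those of other controls. The part of these markers in the result was not tested. In the STAM livers at 4 weeks the hepatocyte markers summed to 101160 to 115842 CPM, below all 5 controls, and 1 of 6 fell. Over all genes tested the number called was 1821 without that library and 1500 with it.

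**Figure D4:**
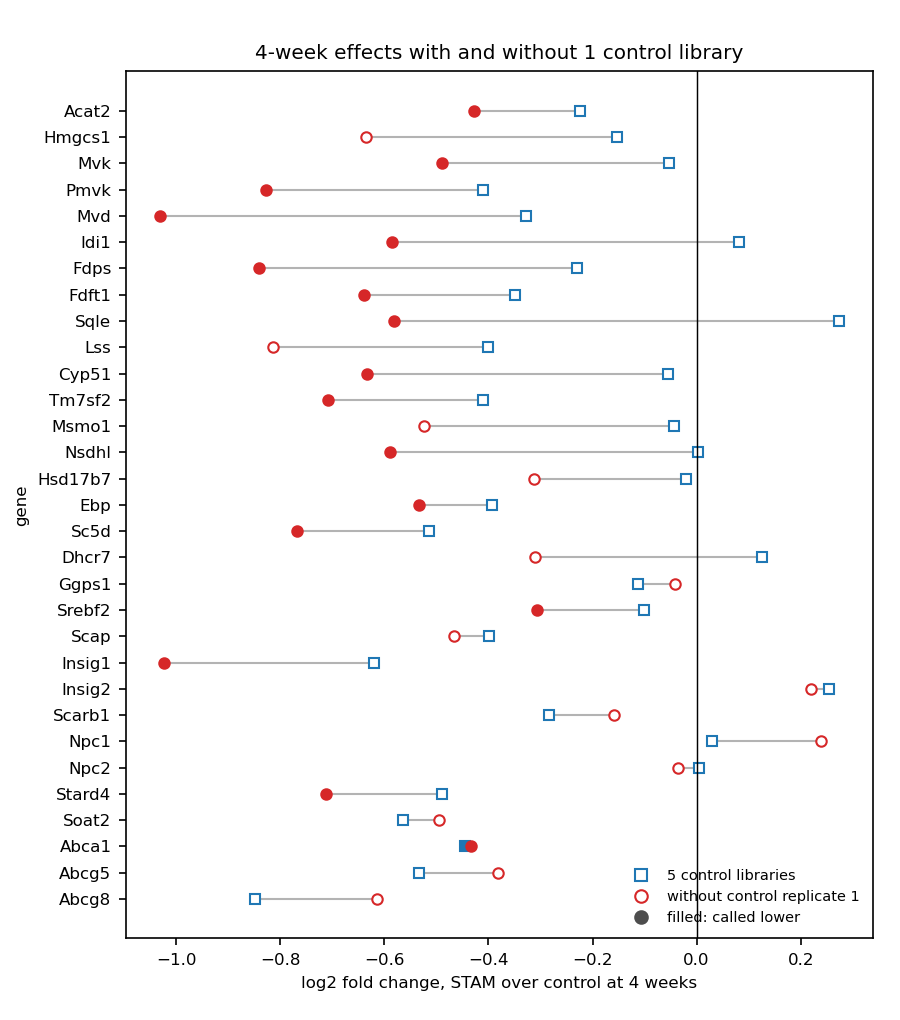
Log2 fold change of STAM over control at 4 weeks for the 31 genes with all 5 control libraries (squares) and without control replicate 1 (circles), filled where called lower. Without that library all 19 synthesis genes lie left of 0 and 17 of 31 circles are filled, against 1 filled square, Abca1.

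At 10 weeks 7 of 19 synthesis genes and 1 of 4 regulators of SREBP2 fell in STAM livers. In uptake and transport 1 of 4 genes fell and 1, a lysosomal gene, rose. Of the 3 exporters Abca1 fell, a call lost with both other scalings, while Abcg5 and Abcg8 had positive values that did not pass the test. Insig1 was 3.10-fold lower, Tm7sf2 2.79-fold and Cyp51 2.41-fold, Stard4 1.74-fold and Abca1 1.27-fold lower, while Npc1 was 1.36-fold higher. None of the 19 synthesis genes had a positive log2 fold change. Of the 31 genes 1 rose and 10 fell (3.23% and 32.3%), and in that comparison 47.8% of all genes tested were called, 25.3% higher and 22.5% lower. The median was -0.52 over the 31 genes, -0.72 over the 19 synthesis genes and 0.05 over all genes. Of the synthesis genes 7 fell and 0 rose, and 4 fell with total-read scaling and 7 with quantile normalization, where the 31 genes gave 6 higher and 6 lower and 5 higher and 9 lower calls. With total-read scaling 7994 of all 15312 genes tested were called, 7041 of them higher, and with quantile normalization 6328, 2892 of them higher.

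Acat2 and Pmvk fell in the mevalonate part. Acat2 had 83.6, 92.5, 92.8, 107 and 94.1 CPM in STAM and 173, 116, 125, 137 and 128 CPM in control livers, without overlap (log2 fold change -0.52, SE 0.10, adjusted p = 0.000907), and lost its call with total-read scaling (-0.23, adjusted p = 0.0649). Pmvk had 14.3, 13.5, 16, 23.1 and 17.3 CPM in STAM and 55.4, 16.4, 29.5, 31.9 and 23.4 CPM in control livers, where control replicate 2 lay inside the STAM range (log2 fold change -0.81, SE 0.29, adjusted p = 0.0438). The Pmvk call was lost without any of STAM replicates 1, 2, 3 and 5 and control replicates 3 and 4 (adjusted p up to 0.0936), with total-read scaling (0.151) and with voom weights (0.0517). The other 6 genes did not pass the test, from -1.16 for Idi1 (adjusted p = 0.0622) to -0.10 for Mvk. Idi1 was called lower without STAM replicate 4 (-1.40, adjusted p = 0.0303) or control replicate 2 (-1.38, 0.0355), without robust variance (0.0229) and with the stricter filter on low values (0.0473), and Mvd with quantile normalization (-1.19, 0.0456). Hmgcs1 had 133, 124, 113, 270.1 and 209 CPM in STAM and 313, 137, 168, 129.9 and 175 CPM in control livers, given here because its promoter is printed. STAM replicates 4 and 5 were the high ones of their group and control replicate 1 the high one of its group (log2 fold change -0.13, SE 0.31).

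Of the 11 squalene and sterol genes, 5 fell at 10 weeks (45.5%, against 22.5% of all genes tested). Tm7sf2 had 38.4, 27.4, 38.6, 40.4 and 29.4 CPM in STAM livers, against 118, 86.7, 86.2, 90.4 and 103 CPM in control livers. The highest STAM liver was below the lowest control by a wide margin (log2 fold change -1.48, SE 0.12, adjusted p = 2.02e-06). Cyp51 had 56.2, 35.5, 52.3, 95.5 and 68.2 CPM in STAM and 262, 101, 144, 141 and 103 CPM in control livers. Its groups did not overlap, but STAM replicate 4 came close to control replicate 2 (log2 fold change -1.27, SE 0.32, adjusted p = 0.00968). Ebp had 151, 148, 162, 127 and 117 CPM in STAM and 303, 226, 247, 249 and 244 CPM in control livers (log2 fold change -0.85, SE 0.10, adjusted p = 2.4e-05). Sc5d had 291, 289, 292, 407 and 329 CPM in STAM and 636, 418, 503, 589 and 503 CPM in control livers, where STAM replicate 4 lay just below control replicate 2 (log2 fold change -0.72, SE 0.12, adjusted p = 0.000414). Fdft1 (-0.64, adjusted p = 0.0445) lost its call without any of STAM replicates 1, 2, 3 and 5 and control replicates 3 and 4 (adjusted p up to 0.0966) and with both other scalings (-0.35 and -0.49).

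The remaining 6 sterol genes did not pass the test at 10 weeks. Sqle, chosen here after its values were seen, had 11.7, 8.55, 9.44, 40.2 and 21.4 CPM in STAM and 108, 11, 25.6, 18.9 and 18 CPM in control livers (log2 fold change -0.73, SE 0.68, adjusted p = 0.401). Control replicate 1 was the highest of the 10 libraries, and STAM replicate 4 exceeded the other 4 controls. Lss (-0.71), Nsdhl (-0.89), Msmo1 (-0.61), Dhcr7 (-0.15) and Hsd17b7 (-0.05) were the others. Lss and Nsdhl were called lower without STAM replicate 4 (adjusted p = 0.0397 and 0.0443) or without control replicate 2 (0.0363 and 0.0477), and without robust variance (0.0278 and 0.0332), Lss also with the stricter filter (0.0454). Without control replicate 1, the highest control, the count of synthesis genes that fell was again 7, the median moved to -0.43, and 15 of 19 were negative, while 48.5% of all genes were called, 25.4% higher and 23.1% lower. Dhcr7 then stood at 0.22, Mvk at 0.20, Hmgcs1 at 0.08 and Hsd17b7 at 0.07, none of them called.

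Insig1 was the regulator that fell at 10 weeks. It had 156, 90.8, 111, 168 and 142 CPM in STAM livers, against 560.2, 351, 465, 417 and 278 CPM in control livers. All STAM livers were below all controls (log2 fold change -1.63, SE 0.21, adjusted p = 0.000126), and without control replicate 1 the value was -1.51 (adjusted p = 0.000261). Insig2, its companion, was at 0.03 (SE 0.19, 95% interval -0.39 to 0.45). Srebf2 had 40.1, 37.3, 38.7, 49.3 and 43.7 CPM in STAM and 66.4, 39.4, 45.8, 44.6 and 51.7 CPM in control livers, which overlapped (log2 fold change -0.23, SE 0.12, adjusted p = 0.143). Scap was at 0.17 (adjusted p = 0.187) and was called higher without STAM replicate 5 or control replicate 1 (0.25 each) and with total-read scaling (0.46) and quantile normalization (0.35). The hepatocyte markers summed to 39993 to 55587 CPM in STAM and 74682 to 99757 CPM in control livers at 10 weeks, 5 of 6 fell, and their part in these results was not tested.

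In transport, Stard4 fell and Npc1 rose. Stard4 had 74.3, 55, 57.7, 76.1 and 57.2 CPM in STAM and 144, 92.8, 103, 126 and 95.1 CPM in control livers, with no overlap (log2 fold change -0.80, SE 0.14, adjusted p = 0.000455). Npc1, which lifts cholesterol out of the lysosome membrane, had 274, 269, 269, 218 and 232 CPM in STAM and 192, 169, 170.4, 206 and 189 CPM in control livers, also with no overlap (log2 fold change 0.45, SE 0.09, adjusted p = 0.000865). Npc2, the soluble partner of Npc1, was at -0.01 as deposited, and at 0.28 and called higher (adjusted p = 0.0105) with total-read scaling. Scarb1 was at 0.26 (adjusted p = 0.110) and was called higher with total-read scaling (0.55) and quantile normalization (0.49) and without STAM replicate 5 or control replicate 5 (0.34 each). Soat2 was at -0.20 (adjusted p = 0.0614), and was called lower without STAM replicate 3, control replicate 1 or control replicate 5 (-0.23 each).

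As deposited, only Abca1 of the exporters passed the test at 10 weeks, and no test compared the exporters with each other. Abca1 had 298, 346, 299, 307 and 254 CPM in STAM livers, against 362, 363, 383, 374 and 429 CPM in control livers. No STAM liver reached the lowest control (log2 fold change -0.35, SE 0.09, adjusted p = 0.00486), but the call was lost with total-read scaling (-0.06, adjusted p = 0.602) and quantile normalization (-0.09, adjusted p = 0.404). Abcg5 had 177, 229, 239, 134 and 102 CPM in STAM and 99.8, 128, 98, 126 and 140.4 CPM in control livers (log2 fold change 0.52, SE 0.23, adjusted p = 0.0869). Abcg8 had 266, 297, 334, 167 and 132 CPM in STAM and 120.4, 168, 124, 160.0 and 195 CPM in control livers (log2 fold change 0.58, SE 0.26, adjusted p = 0.0941). For both genes STAM replicates 1, 2 and 3 were above all controls. The remaining STAM livers, replicate 5 among them, were within the range of the controls. Neither passed the test as deposited, and both were called higher without STAM replicate 5 (0.70 and 0.77) and with total-read scaling (0.81 and 0.87) and quantile normalization (0.71 and 0.80).

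**Figure D5:**
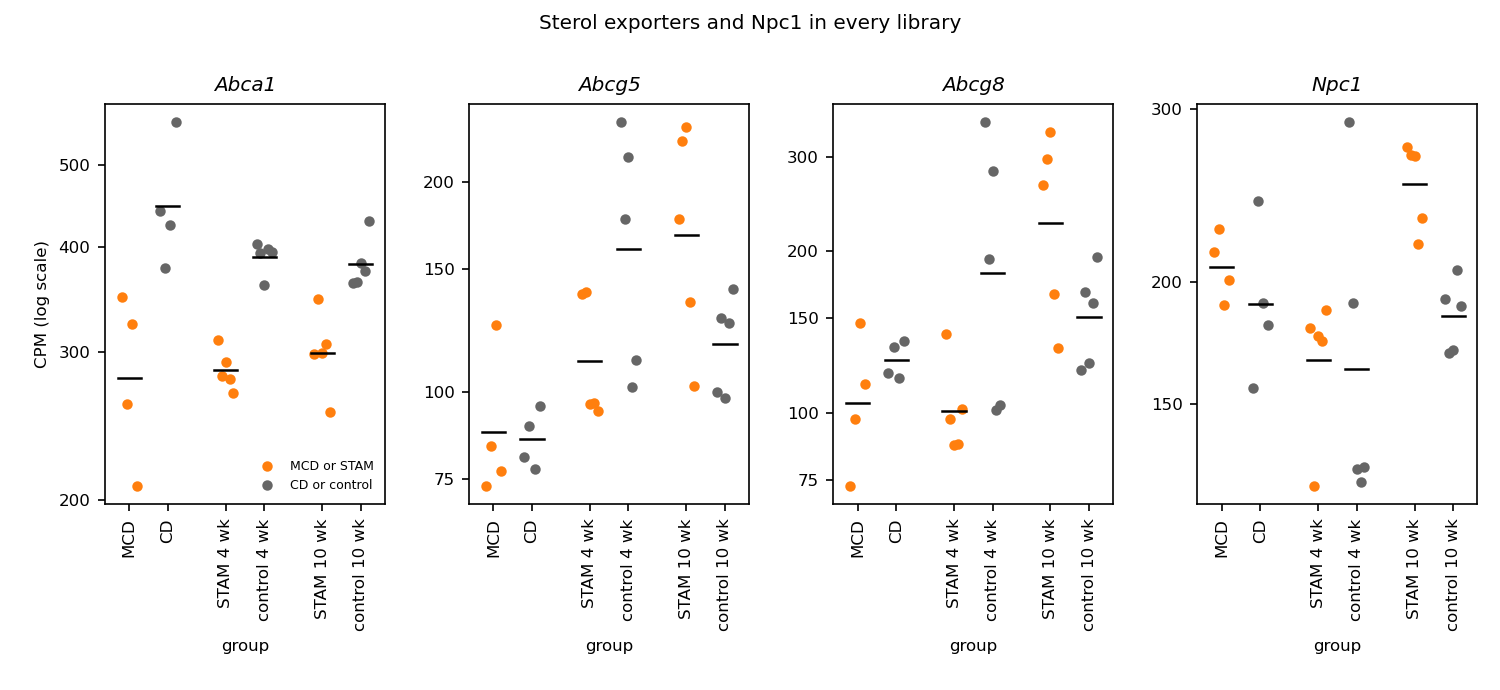
CPM on a log scale of the exporters Abca1, Abcg5 and Abcg8 and of the lysosomal gene Npc1 in each library (points; orange MCD or STAM, grey CD or control), with the mean of the log2 values of each group as a bar. Abca1 is lower in the MCD and STAM livers of all 3 tables. Abcg5 and Abcg8 overlap with the CD or control livers in all 3 tables and reach 239 and 334 CPM in the highest 10-week STAM liver.

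Whether the STAM effect differed between ages was tested as the 10-week effect minus the 4-week effect in a fit of 4 groups, over 15022 genes. Of the 31 genes Scap (0.57, adjusted p = 0.0327) and Abcg8 (1.43, adjusted p = 0.0385) were called higher and Tm7sf2 (-1.07, adjusted p = 0.0256) lower, against 20% of all genes in either direction, 8.89% higher and 11.2% lower. The share of the 31 genes was below the background. Without the first 10-week control 20.6% of all genes were called, 9.22% higher and 11.4% lower, and 1 of the 31 was called each way. The difference of Insig1 was -1.01 (adjusted p = 0.133) and that of Abcg5 1.05 (adjusted p = 0.0501). Scap lost its call in 8 of the fits that left out 1 library (adjusted p up to 0.0609). Abcg8 lost its call in 14 of the fits that left out libraries and, as did Scap, with the replicate block. These fits were the one without the first control of both ages (1.11, adjusted p = 0.0818) and others that left out 1 library (adjusted p up to 0.0701). Without control replicate 1 of the 4-week table its difference was 1.19 (adjusted p = 0.0533), and 25.3% of all genes were called, 12.2% higher and 13.1% lower. Tm7sf2 kept its call without that library (-0.77, adjusted p = 0.00158) and without the first control of both ages (-0.70, adjusted p = 0.00227, where 26.6% of all genes were called, 12.7% higher and 13.9% lower), and lost it with total-read scaling (-0.86, adjusted p = 0.0588). The median of the 19 synthesis differences was -0.39 with all libraries, -0.01 without the first 4-week control and 0.26 without the first control of both ages. Of the synthesis genes, Tm7sf2 was the 1 whose 10-week effect was shown to differ from its 4-week effect.

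The 2 models were compared as the MCD effect minus the 10-week STAM effect, over 14986 genes, of which 27.9% were called, 12.9% higher and 15% lower. Of the 31 genes 8 were called higher (25.8%) and 5 lower (16.1%). The genes that stood higher in the MCD effect were Idi1 (2.01, adjusted p = 0.0114), Cyp51 (1.49, 0.00976), Fdft1 (1.21, 0.00476), Hmgcs1 (1.08, 0.0452), Lss (1.06, 0.0480), Hsd17b7 (0.81, 0.0199), Srebf2 (0.58, 0.0353) and Soat2 (0.56, 0.0100). Those that stood lower were Insig2 (-1.17, 0.00242), Scap (-0.77, 0.0103), Scarb1 (-0.52, 0.0342), Ebp (-0.46, 0.0149) and Tm7sf2 (-0.44, 0.0459). Sqle differed by 1.86, the second largest difference, but did not pass (SE 0.79, adjusted p = 0.0969). Insig1, which fell in both models, differed by 0.16 with a 95% interval of -0.41 to 0.73. Idi1, Cyp51, Fdft1, Hsd17b7, Soat2, Insig2 and Scap kept their calls in every setting run, each library left out in turn included. Hmgcs1, Lss, Srebf2, Scarb1 and Tm7sf2 lost theirs in at least 8 of the 18 fits that left out 1 library, and Ebp with total-read scaling (-0.33, adjusted p = 0.0513). Without the first 10-week control 5 of the 31 genes were called higher and 5 lower, against 28.8% of all genes, 13.4% higher and 15.4% lower. Hmgcs1 (0.87, adjusted p = 0.0550), Lss (0.84, 0.0509) and Srebf2 (0.47, 0.0528) then lost their calls.

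A further 26 genes of sterol handling were listed to set the module in its pathway, covering cleavage and turnover of SREBP, LXR and its targets, lipoprotein uptake, the lysosome, transfer between membranes and ester metabolism. In MCD livers 11 of the 26 rose and 5 fell, with a median of 0.21. These were 42.3% and 19.2% of the 26, against 22.6% and 20.1% of all genes tested, so the share that fell lay near the background. The largest changes were those of Vldlr, a lipoprotein receptor (1.38), Soat1, the ester-forming enzyme of macrophages and other cells (1.24), Gramd1b, which carries sterol from the plasma membrane (1.15), Tmem97, a binding partner of Npc1 (0.92), Nceh1, a hydrolase of cholesteryl esters (0.87), Lrp1, a remnant receptor (-0.84), Lcat, which makes cholesteryl esters in plasma (-0.82), and Abcg1, an exporter to high-density lipoprotein (0.68). The split was 15 higher and 1 lower with total-read scaling and 13 and 2 with quantile normalization. Of all 15312 genes tested, 7582 were higher with total-read scaling and 3101 with quantile normalization. Gramd1b (0.55, adjusted p = 0.203) and Lrp1 (-0.26, 0.285) lost their calls with quantile normalization, Lrp1 also with total-read scaling, and Vldlr without CD replicate 3 or MCD replicate 1, 3 or 4 (adjusted p up to 0.0624).

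In STAM livers at 4 weeks 2 of the 26 were called, Soat1 higher (0.46, adjusted p = 0.0149) and Vldlr lower (-0.93, adjusted p = 0.00447). Each direction held 3.85% of the 26, against 6.52% higher and 3.27% lower of all genes tested. At 10 weeks 11 rose and 6 fell, with a median of 0.16. These were 42.3% and 23.1% of the 26, against 25.3% and 22.5% of all genes tested, so the share that fell lay near the background. Gramd1b (1.15), Abcg1 (1.12), Nceh1 (1.0), Vldlr (0.96), Mylip, an LXR target that marks lipoprotein receptors for destruction (0.83), Lpcat3, an LXR target that remodels phospholipids (0.73), and Soat1 (0.69) rose, and Lbr, which shares the reaction of Tm7sf2, fell by 0.63 on the log2 scale. The split was 16 higher and 1 lower with total-read scaling and 10 and 1 with quantile normalization. Of all 15312 genes tested, 7041 were higher with total-read scaling and 2892 with quantile normalization. With quantile normalization Gramd1b (0.44, adjusted p = 0.184) and Vldlr (0.83, 0.0603) lost their calls, and Vldlr also without STAM replicate 1 or 5 or control replicate 1, 3, 4 or 5 (adjusted p up to 0.0626). By the test of the difference, the effect at 10 weeks was above that at 4 weeks for Abcg1, Mylip and Lpcat3 (by 1.0, 0.99 and 1.05), whose 4-week values of 0.12, -0.16 and -0.32 did not pass the test. Several of these genes are known from macrophages, and the 8 macrophage markers summed to 306 to 624 CPM in MCD and 135 to 228 CPM in CD livers (6 of 8 rose), to 230 to 299 CPM in STAM and 149 to 194 CPM in control livers at 4 weeks (6 of 8 rose), and to 236 to 334 CPM in STAM and 149.5 to 204 CPM in control livers at 10 weeks (8 of 8 rose). All 8 had reads in each group, and their part in these results was not tested.

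The authors' deposited table gives its own adjusted p-values. At a threshold of 0.05 the authors' deposited table called 7 of the 31 genes higher and 12 lower for MCD, 0 and 5 at 4 weeks and 3 and 14 at 10 weeks. The share of all genes called there at that threshold was not measured, so these counts give no result about the module as a whole.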

How the data were processed

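Whole-liver RNA was extracted with Trizol and column purification, and stranded poly(A) libraries were sequenced as paired ends, per the labels' protocols. STAR 2.4.2a and the build mm10 are named per the submitters' processing notes; no source used here names the counter or says whether it used strand. The deposited values are log2 CPM made by the authors with a prior of 0.25 reads, as the values show: all came out as whole reads within 0.05. The authors' deposited p-values are used only in the sentences that name that table. The deposited gene lengths gave levels per kilobase.

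Genes above the 25th percentile of mean log2 CPM were fitted with limma 3.58.1 (trend, robust, with statmod 1.5.0, in R 4.3.3), and p-values were adjusted by Benjamini-Hochberg over all genes tested and called below 0.05. The step was tested on simulated data. CPM is the recovered reads over the authors' effective library size, without the prior. Acat2, Fdft1, Tm7sf2, Npc1, Abcg5 and Abcg8 overlap or resemble other genes, so their counts are uncertain. Symbols from the tables were matched to RefSeq GRCm38.p6. No 2 libraries of a group agreed within sampling noise.

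The members and lists were chosen with earlier results of these data known. Named genes were, per comparison, those with the largest called changes by role and the regulators and exporters, and up to 8 pathway genes. Alternatives were total-read scaling, quantile normalization, voom weights, other filters and priors, no robust variance, a replicate block and each library left out. Leaving out the first control of both ages together was chosen after seeing the data. Marker lists of 11 cell types were measured.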

Additional observations from a re-analysis of the deposited data

Results flagged for a closer look

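Single libraries stood far from the rest of their group in 20 of 186 gene-and-group sets, where chance gives about 1 in 20 for a single set. The sets share libraries and are not independent. Of the 20, 11 were the 4-week control replicate 1, at the low end of the pathway: on the log2 CPM scale it held Acat2 at 6.73, Mvk at 2.32, Mvd at 1.64, Idi1 at 4.70, Fdps at 5.15, Sqle at 2.6, Cyp51 at 5.31, Tm7sf2 at 5.31, Nsdhl at 4.02, Insig1 at 7.63 and Srebf2 at 5.29. These are synthesis genes and regulators of SREBP2, and every one lay below the other 4 controls.

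In the same units, the 10-week control replicate 1 was far above its group in Fdft1 (7.40). The 4-week control replicate 3 was far below in Abca1 (8.49). Among STAM livers, the 4-week replicate 1 was high in Sc5d (9.89), the 4-week replicate 2 low in Npc1 (6.95) and the 10-week replicate 5 low in Scap (6.55). In the diet groups, MCD replicate 3 was high in Acat2 (6.63), MCD replicate 2 low in Npc2 (6.48) and high in Stard4 (6.76), and CD replicate 3 low in Stard4 (6.52).

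The STAM effect differed between ages, by the limma test of the difference (10 weeks minus 4 weeks, log2), for the sterol reductase Tm7sf2 (-1.07), the escort Scap (0.57) and the exporter Abcg8 (1.43). The calls of Scap and Abcg8 were lost in several fits that left out a library, and that of Tm7sf2 with total-read scaling.

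The MCD effect minus the 10-week STAM effect (log2) was positive by the same kind of test for Hmgcs1 (1.08), Idi1 (2.01), Fdft1 (1.21), Lss (1.06), Cyp51 (1.49), Hsd17b7 (0.81), Srebf2 (0.58) and Soat2 (0.56). It was negative for Tm7sf2 (-0.44), Ebp (-0.46), Scap (-0.77), Insig2 (-1.17) and Scarb1 (-0.52).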

How the results depend on the processing

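The largest move of a count came at 4 weeks, without control replicate 1. Scaling moved counts in the other comparisons; the cause was not tested. With total-read scaling the 31 genes gave 15 higher and 6 lower calls in MCD, 6 and 6 in STAM at 10 weeks (synthesis 4 lower), 6 and 0 for the age difference (synthesis 0 lower) and 2 lower for the model difference (synthesis 0 lower). Of all genes tested, that scaling called 8804 in MCD (7582 higher) and 7994 at 10 weeks (7041 higher). For the age difference it called 3464 (2925 higher) and for the model difference 4275 (2667 higher). With quantile normalization 7 were lower in MCD, 5 higher at 10 weeks and 5 higher for the age difference. Of all genes, quantile normalization called 6233 in MCD (3101 higher), 6328 at 10 weeks (2892 higher) and 2426 for the age difference (1172 higher). With total-read scaling the sign changed for Stard4 (0.010), Lpcat3 (0.031) and Osbp (0.080) in MCD and for Npc2 (0.28) at 10 weeks. Leaving out 1 library gave 7 to 9 higher and 10 to 11 lower in MCD (synthesis 7 to 8 and 6 to 7), 0 higher and 1 to 17 lower at 4 weeks (synthesis 0 to 13 lower), and 1 to 5 higher and 8 to 13 lower at 10 weeks (synthesis 5 to 10 lower). For the age difference it gave 0 to 4 higher and 1 to 2 lower (synthesis 1 to 2 lower), and for the model difference 5 to 10 and 3 to 6 (synthesis 4 to 8 and 1 to 2). At 4 weeks the values ranged from -0.59 to 0.32 for Idi1, -0.58 to 0.59 for Sqle and -0.59 to 0.22 for Nsdhl, the low end without control replicate 1. Without the first control of both ages the age difference had 1 higher call. Same-numbered libraries did not deviate together (correlations -0.411 to 0.024), so the numbers do not pair them. With the replicate block the age difference had 0 higher calls, the model difference 3 lower (synthesis 1), and 1 pathway call was lost at 4 weeks, Soat1 (adjusted p = 0.0570). Depth limits the low genes Mvd, Mvk and Ggps1.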

Other observations

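Marker RNA of other cell types was also compared between the groups. It is given as counts of markers called by the limma test across all genes and as summed CPM. These are RNA levels of whole liver, and no cells were counted. In MCD 22.6% of all genes tested were called higher and 20.1% lower. The shares were 6.52% and 3.27% at 4 weeks, and 25.3% and 22.5% at 10 weeks. Cholangiocyte markers rose in 3 of 4 in MCD (11.7 to 17 CPM in MCD, 5.67 to 12.7 in CD), in 2 of 4 at 4 weeks (9.67 to 11.8 in STAM, 3.09 to 8.55 in control) and in 3 of 4 at 10 weeks (7.0 to 21.8 in STAM, 2.72 to 6.03 in control). Stellate cell markers rose in 4 of 5 in MCD (103 to 153 CPM in MCD, 63.4 to 72.5 in CD), in 0 of 5 at 4 weeks and in 4 of 5 at 10 weeks, where 1 fell (77.3 to 159 in STAM, 61.2 to 89.7 in control). Kupffer cell markers rose in 1 of 4, 3 of 4 and 1 of 4. Endothelial markers fell in 2 of 4 in MCD and at 4 weeks, and at 10 weeks 1 rose and 1 fell. Neutrophil markers rose in 2 of 3 in MCD and in none tested in STAM. T cell markers fell in 1 of 4 in MCD and rose in 2 of 4 at 10 weeks, and none of the 3 B cell markers was called. The counts of Kupffer cell (MCD and 10 weeks), T cell (MCD) and endothelial markers (10 weeks) lay near the shares of all genes. Those counts give no result about these cell types. The enterocyte list was Vil1, Fabp2, Sis and Apoa4, of which 3 of 4 were tested and 1 had no read. Of these, 2 rose in MCD (2514 to 5186 CPM in MCD, 490.3 to 1257 in CD) and 1 at 4 weeks (361 to 1083 in STAM, 138 to 179 in control). At 10 weeks 3 rose (2149 to 3927 in STAM, 132 to 220.5 in control). Which cells of the liver held that RNA was not tested. Of the exocrine pancreas list 1 of 4 was tested, and it fell in MCD. The part of these cell types in the results above was not tested.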
